A study of Homo sapiens with 12 samples.

Results

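The 39 interferon-stimulated genes described here are a named set of antiviral effectors, RNA sensors and transcription factors, and all 39 were found by symbol among the 54261 genes of the deposited total RNA count table. They were compared between HCT116oxR, a human colorectal carcinoma line made resistant to oxaliplatin, and HCT116, the line it came from. The labels describe a stepwise selection of HCT116 cells in oxaliplatin, a platinum drug that forms DNA adducts, starting at 0.1 µmol/L, passing through 0.5, 1.0 and 2 µmol/L and ending at 5 µmol/L for 1 year. The parental HCT116 cells carry no drug selection in the labels. Each line gave 3 total RNA libraries from separately grown and harvested cultures. The resistant line is a single derivation, so each p-value reflects variation among cultures of that line and its parent. A second, independent derivation was not part of the comparison. The labels do not say whether drug was present at harvest.

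Library totals ran from 12259870 to 13558077 counts in HCT116oxR and from 11950069 to 13340564 counts in HCT116. Of the colorectal epithelial markers, EPCAM, CDH1, KRT8, KRT18, KRT20 and CDX2 had enough counts to test, while CDX1, VIL1, LGALS4 and GPA33 had at most 30 counts over the 6 libraries. The leukocyte genes PTPRC, CD3E, CD3D, CD2, MS4A1 and TYROBP had 0 counts in every library. The 12 leukocyte markers summed to 6.76 to 8.65 CPM (TMM-scaled CPM, a gene's share of the library's counts) in HCT116oxR and to 13.1 to 16.8 CPM in HCT116, largely from CD68. The 10 epithelial markers summed to 2722 to 2762 CPM in HCT116oxR and to 1995 to 2073 CPM in HCT116, largely from KRT8 and KRT18. The part of either marker shift in the results below was not tested. Levels are given throughout in CPM, which is not corrected for transcript length. Single genes were compared between the lines, and so were sums over fixed lists. A gene's part of such a sum is a share of counts, in which longer transcripts weigh more.

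Interferons are secreted when a cell senses foreign or misplaced nucleic acid. They act through receptors and Janus kinases that phosphorylate STAT proteins. These join IRF9 in a complex called ISGF3, which binds interferon-stimulated response elements and switches on antiviral genes. Many of these genes are also transcribed at a low, constitutive level without interferon, and a chronic form of this expression has been described in tumour cells that resist DNA-damaging treatment.

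As a group the interferon-stimulated genes did not move in a single direction. Of the 39 genes 30 had enough counts to test, 8 rose, 9 fell and 13 did not pass the test (edgeR quasi-likelihood test, two-sided, Benjamini-Hochberg adjusted over all genes, threshold 0.05). That was 56.7% of the tested members, where 44.1% of all 17511 tested genes were called, 22.3% higher and 21.8% lower. The median log2 fold change of HCT116oxR over HCT116 was -0.01 over the 30 tested members and 0.00 over all tested genes. The median absolute change was 0.52 among the members and 0.27 over all tested genes. These were not matched for level, since the median log2 CPM was 3.58 among the members and 4.09 over all tested genes. The members' value includes low-count genes that did not pass, such as BST2 (0.60 with an SE of 0.45). At least 2-fold changes were seen in CMPK2, which rose, and IFIT3, which fell, where 8.71% of all tested genes changed by that much.

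The summed level of the 39 genes overlapped between the lines. It was 679, 702.5 and 684 CPM in the HCT116oxR libraries, against 689, 680.5 and 682 CPM in the HCT116 libraries. Within that sum the 3 IFITM genes made up 139.6 to 161 CPM in HCT116oxR and 83.8 to 91.8 CPM in HCT116. The sum of the 4 OAS genes was 119 to 126 CPM in HCT116oxR and 149 to 158 CPM in HCT116, nearly all of it OAS3, the only one of the 4 called lower. For 18 of the 30 tested members the libraries of the lines did not overlap, where 50.5% of all tested genes showed this. These were 15 of the 17 called genes together with USP18, MX1 and IFI44. Among tested members the coefficient of variation between libraries ran from 2.03% (OAS3) to 45.6% (IFI27) in HCT116oxR and from 2.84% (OAS3) to 56.1% (CMPK2) in HCT116.

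**Figure D1:**
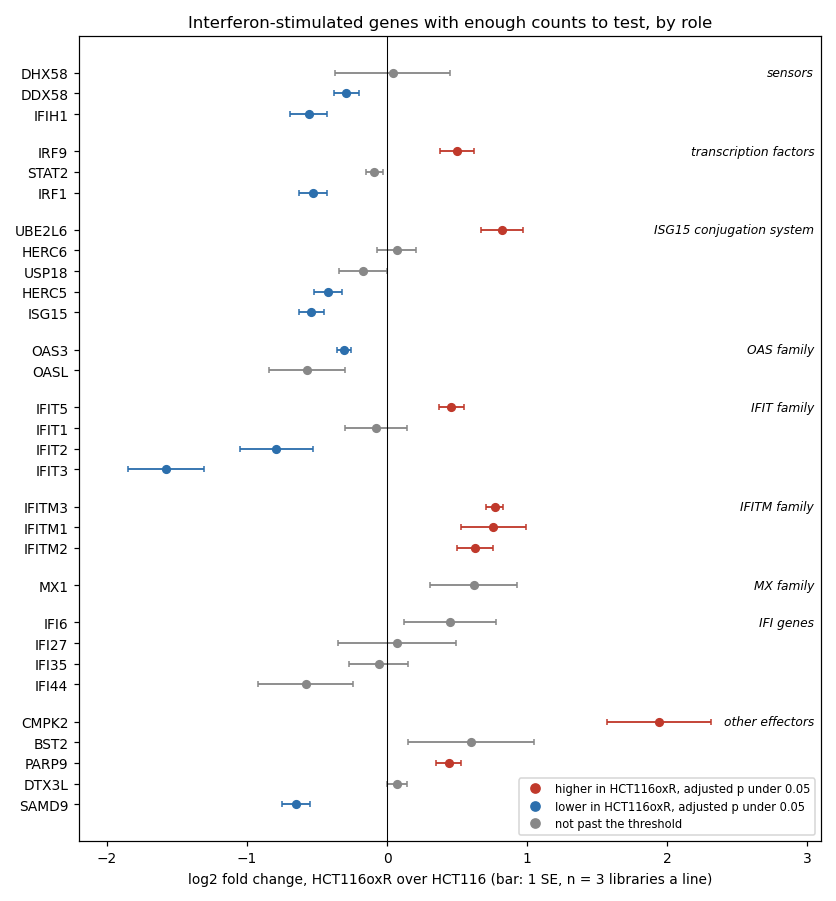
Log2 fold change (HCT116oxR over HCT116, x axis) with 1 SE for the 30 tested members, grouped by role from the sensors at the top to other effectors at the bottom. Red points rose (8 genes), blue points fell (9 genes) and grey points did not pass the test (13 genes), and the IFITM genes are all red while the IFIT family holds both colours.

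**Figure D2:**
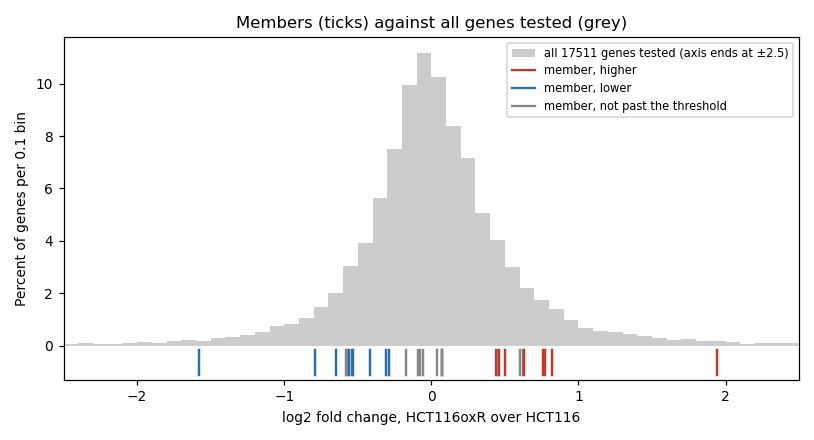
Distribution of log2 fold changes over all 17511 tested genes (grey, percent of genes per bin of 0.1) with a tick below the axis for each tested member, coloured by its call. The ticks lie on either side of 0, from -1.58 (IFIT3) to 1.94 (CMPK2).

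Promoter letters were set beside these directions, since the response element is the sequence that ISGF3 and the IRF factors read. In RefSeq promoter windows (250 bases before to 50 after a start, GRCh38.p14), 31 of the 39 genes had an entry. The element was searched as GAAA, any 2 bases and GAAA again, or on the other strand as TTTC, any 2 bases and TTTC, with overlapping matches counted. It was found in 20 of the 31 genes (64.5%), and in 1195 of all 27305 genes with a window in the table (4.38%), counting any window of a gene in both. By call it was found in 4 of 7 genes that rose, in 6 of 8 that fell and in 7 of 10 that did not pass. The shorter gamma-activated sequence TTCNNNGAA, the same on either strand, was in 9 of the 31 genes (29.0%) and in 9.38% of all genes. In IFITM1, MX1, IFI27, BST2 and EPSTI1 a match of it shared bases with a response element match.

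The last 120 bases before the start are shown for a pair of genes that fell and a pair that rose, 5′ to 3′ on the gene's strand, with the response element matches in capitals. All 4 are genes that carry the match, so they serve as examples only, and whether the element goes with direction was not tested. Among called genes, UBE2L6, IRF9 and CMPK2, which rose, and DDX58 and IRF1, which fell, had no response element match in their windows. At the first IFIT3 start site the matches lie further from the start than at the site shown. IFIT3 (the second of its start sites in the table) is at chr10:89332409-89332528 on the plus strand, ISG15 at chr1:1013377-1013496 on the plus strand, IFIT5 at chr10:89414448-89414567 on the plus strand and IFITM3 at chr11:320861-320980 on the minus strand.
IFIT3: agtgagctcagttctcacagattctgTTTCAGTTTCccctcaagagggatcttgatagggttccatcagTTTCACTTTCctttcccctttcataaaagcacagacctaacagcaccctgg
ISG15: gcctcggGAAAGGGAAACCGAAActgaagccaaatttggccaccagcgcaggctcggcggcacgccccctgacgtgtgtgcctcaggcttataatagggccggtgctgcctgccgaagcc
IFIT5: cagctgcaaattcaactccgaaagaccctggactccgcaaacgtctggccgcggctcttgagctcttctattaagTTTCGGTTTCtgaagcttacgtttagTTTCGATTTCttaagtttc
IFITM3: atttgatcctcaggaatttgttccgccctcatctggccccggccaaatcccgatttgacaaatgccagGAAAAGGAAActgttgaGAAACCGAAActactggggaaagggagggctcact
Each of the 4 stretches holds 2 matches, which overlap in ISG15, and in IFIT5 another match runs past the end of the stretch. The genes that fell are IFIT3 and ISG15, and those that rose are IFIT5 and IFITM3. CMPK2, the member with the largest rise, had 3 windows, and neither motif's letters are in them.

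The cytoplasmic RNA sensors were lower in HCT116oxR or did not pass. IFIH1, which encodes MDA5, a sensor of long double-stranded RNA, had 11.2, 12.2 and 11.8 CPM in HCT116oxR, against 16.5, 18.1 and 17.6 CPM in HCT116. It fell by 0.56 ± 0.13 on the log2 scale (SE here and below, n = 3 libraries per line, adjusted p = 1.25e-04). DDX58, which encodes RIG-I, a sensor of short RNA with a 5′ triphosphate, had 28.1, 30.8 and 32.3 CPM in HCT116oxR, against 38.0, 39.5 and 33.8 CPM in HCT116, and fell by 0.29 ± 0.09 (adjusted p = 0.00435). All HCT116oxR libraries lay below all HCT116 libraries for both genes. DHX58, which encodes LGP2, a regulator of the other sensors, was at 1.48 ± 0.274 CPM in HCT116oxR and 1.44 ± 0.713 CPM in HCT116 (SD), with a log2 fold change of 0.04 ± 0.41 that rests on 12 to 28 counts per library.

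The transcription factors split. IRF9, the DNA-binding partner of the STATs in ISGF3, had 20.8, 21.8 and 21.5 CPM in HCT116oxR, against 15.2, 14.6 and 15.6 CPM in HCT116. It rose by 0.50 ± 0.12 (adjusted p = 1.88e-04), with no overlap between the lines. IRF1, a factor induced above all by interferon gamma, had 22.4, 20.4 and 20.9 CPM in HCT116oxR, against 31.2, 27.1 and 33.8 CPM in HCT116, and fell by 0.53 ± 0.10 (adjusted p = 2.99e-06). STAT2, a partner of IRF9 in that complex, had 69.1, 62.5 and 72.5 CPM in HCT116oxR, against 67.7, 74.8 and 75.2 CPM in HCT116, and the libraries overlapped. Its log2 fold change was -0.09 (approximate 95% interval -0.21 to 0.03, adjusted p = 0.238). IRF7, which amplifies type I interferon production, was barely detected, with 4, 2 and 1 counts in HCT116oxR and 3, 0 and 4 counts in HCT116.

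ISG15 is a ubiquitin-like protein that is joined to other proteins by a chain of enzymes, and its components moved apart. ISG15 itself had 23.4, 22.8 and 25.9 CPM in HCT116oxR, against 33.7, 35.1 and 36.3 CPM in HCT116, and fell by 0.54 ± 0.09 (adjusted p = 3.24e-07). HERC5, the main human ligase for ISG15, had 19.99, 24.5 and 23.5 CPM in HCT116oxR, against 33.5, 29.6 and 27.6 CPM in HCT116, and fell by 0.42 ± 0.10 (adjusted p = 2.24e-04). UBE2L6, the conjugating enzyme that hands ISG15 to the ligase, had 13.3, 15.5 and 15.6 CPM in HCT116oxR, against 8.75, 9.17 and 7.28 CPM in HCT116, and rose by 0.82 ± 0.15 (adjusted p = 8.48e-07). For each of these genes the lines did not overlap, with the modifier and its ligase low and the conjugating enzyme high in HCT116oxR. USP18, the protease that removes ISG15 and restrains the interferon receptor, was at -0.17 ± 0.17 (adjusted p = 0.435). HERC6, a paralog of HERC5 next to it on chromosome 4, was at 0.07 ± 0.14 (adjusted p = 0.723). HERC5 and HERC6 overlap the lncRNA LOC102723458, which was at -0.60 ± 0.27 (adjusted p = 0.0596), and strand use in counting is not given in the sources used here.

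The OAS enzymes make 2′-5′ oligoadenylates, small messengers of the response to double-stranded RNA. OAS3 had the most counts of the family. It had 119, 121 and 116 CPM in HCT116oxR, against 152, 145 and 146 CPM in HCT116, and fell by 0.31 ± 0.05 (adjusted p = 5.74e-09). This was a small change with tight replicates and no overlap. OASL, an OAS-like protein without that enzyme activity, had 2.36, 3.66 and 2.28 CPM in HCT116oxR, against 4.83, 3.95 and 3.56 CPM in HCT116, and did not pass (-0.57 ± 0.27, adjusted p = 0.0712). Among the alternatives run, it passed without HCT116oxR replicate 2 (-0.83, adjusted p = 0.0227) and in no other. OAS1 had 7, 8 and 8 counts in HCT116oxR and 2, 3 and 4 counts in HCT116, and OAS2 had at most 8 counts in a library, so neither was tested.

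The IFIT genes lie side by side on chromosome 10 and moved in opposite directions. They encode antiviral proteins, some of which bind viral RNA lacking host cap marks. IFIT3 had 1.99, 1.42 and 2.04 CPM in HCT116oxR, against 5.28, 5.72 and 5.26 CPM in HCT116. It fell by 1.58 ± 0.27 (adjusted p = 2.95e-07), the largest fall among the tested members, and every HCT116oxR library was below every HCT116 library. IFIT2 had 2.43, 3.58 and 2.36 CPM in HCT116oxR, against 5.43, 3.20 and 5.83 CPM in HCT116, and fell by 0.79 ± 0.26 (adjusted p = 0.00800). Here the lines overlapped, and without HCT116 replicate 3 the fall of 0.63 no longer passed (adjusted p = 0.0751). IFIT5 had 42.0, 39.9 and 39.4 CPM in HCT116oxR, against 28.1, 28.6 and 31.6 CPM in HCT116, and rose by 0.46 ± 0.09 (adjusted p = 2.49e-06), without overlap. IFIT1, often taken as the marker of the response, had 4.79, 4.78 and 4.56 CPM in HCT116oxR, against 4.23, 6.39 and 4.37 CPM in HCT116 (-0.08, interval -0.51 to 0.35, adjusted p = 0.806). All 4 IFIT genes overlap the annotated span of LIPA, which was at 0.00 ± 0.07 (adjusted p = 0.967).

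The IFITM genes encode small membrane proteins that block the fusion of enveloped viruses, and all 3 rose. IFITM3 had 120.5, 138 and 112 CPM in HCT116oxR, against 73.2, 69.7 and 74.5 CPM in HCT116, a rise of 0.77 ± 0.06 (adjusted p = 2.47e-23) and the smallest p-value of the set. IFITM2 had 17.0, 17.2 and 19.7 CPM in HCT116oxR, against 11.2, 9.50 and 14.1 CPM in HCT116, and rose by 0.63 ± 0.13 (adjusted p = 2.68e-05). For both genes the HCT116oxR libraries were all higher. IFITM1 had 4.28, 6.04 and 7.58 CPM in HCT116oxR, against 2.79, 4.62 and 3.16 CPM in HCT116, and rose by 0.76 ± 0.23 (adjusted p = 0.00410). Its lines overlapped, and without HCT116oxR replicate 3 the rise of 0.56 no longer passed (adjusted p = 0.0888). The 3 genes are close paralogs that may share reads. Their summed level does not depend on how counted reads are split among them, but it would miss shared reads left out of the counts. Whether such reads were counted is not given. The sum was 148 ± 11.9 CPM in HCT116oxR and 87.6 ± 3.99 CPM in HCT116 (SD, n = 3 each), 1.68-fold higher.

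**Figure D3:**
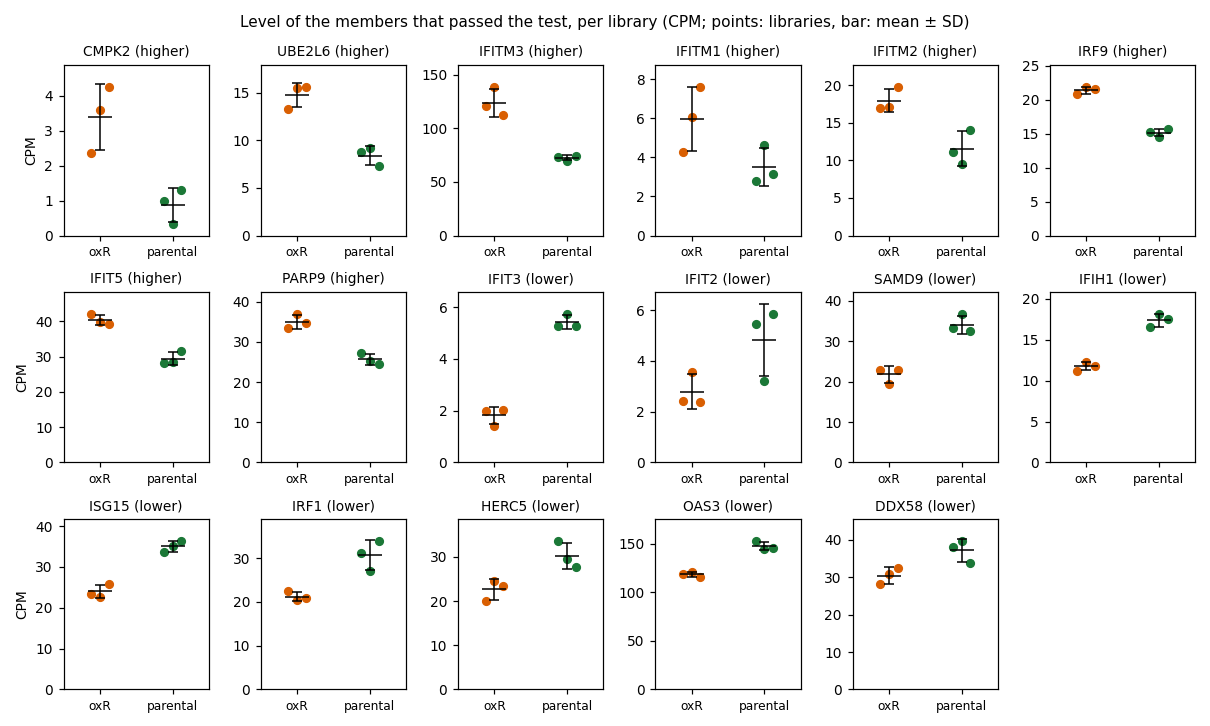
Level in CPM (y axis, from 0) of the 17 members that passed the test, in each HCT116oxR library (orange, left) and each HCT116 library (green, right), with the mean ± SD as black bars. The genes that rose come first, from CMPK2 to PARP9, then those that fell, from IFIT3 to DDX58, and only IFITM1 and IFIT2 show overlapping libraries.

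Among the remaining effectors CMPK2 rose most. CMPK2, a mitochondrial nucleotide kinase induced by interferon, had 2.36, 3.58 and 4.24 CPM in HCT116oxR, against 0.981, 0.336 and 1.29 CPM in HCT116, a rise of 1.94 ± 0.37 (adjusted p = 5.53e-06). All HCT116oxR libraries were above all HCT116 libraries, at 32 to 52 counts against 4 to 16 counts. RSAD2, which encodes the antiviral radical enzyme viperin and overlaps CMPK2 in the annotation, had only 4, 3 and 10 counts in HCT116oxR and 2, 7 and 5 counts in HCT116. RSAD2 was thus near the detection limit in both lines, while CMPK2 was tested and higher in HCT116oxR.

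SAMD9 and SAMD9L are adjacent paralogs on chromosome 7 that restrain poxviruses and cell growth. SAMD9 had 23.01, 19.5 and 22.97 CPM in HCT116oxR, against 33.4, 36.7 and 32.5 CPM in HCT116, and fell by 0.65 ± 0.10 (adjusted p = 6.77e-09). SAMD9L had 1, 0 and 1 counts in HCT116oxR, against 14, 21 and 7 counts in HCT116. It missed the count filter, and its CPM in HCT116 was 22.0 times that in HCT116oxR with an exact 95% counting interval of 5.72 to 187. Without the filter its adjusted p in edgeR was 3.14e-05. Reads that match both paralogs may be split between them.

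PARP9 and DTX3L encode partners in a complex that modifies histones and interferon-driven transcription, and they overlap head to head on chromosome 3. PARP9 had 33.4, 36.9 and 34.8 CPM in HCT116oxR, against 27.2, 25.3 and 24.6 CPM in HCT116, and rose by 0.44 ± 0.09 (adjusted p = 1.99e-05). DTX3L was at 56.0 ± 2.09 CPM in HCT116oxR and 53.4 ± 2.54 CPM in HCT116 (0.07, interval -0.07 to 0.20, adjusted p = 0.463). The rise was called for PARP9 and not for its partner, and the difference between the genes was not tested.

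Several widely used interferon markers did not pass. MX1, a dynamin-like GTPase that traps viral nucleocapsids, had 3.098, 2.76 and 3.096 CPM in HCT116oxR, against 2.49, 1.85 and 1.46 CPM in HCT116 (0.62, interval 0.00 to 1.23, adjusted p = 0.102). The lines did not overlap for MX1, but its 18 to 42 counts per library leave a wide interval. IFI44 was at 1.72 ± 0.353 CPM in HCT116oxR and 2.59 ± 0.101 CPM in HCT116 (-0.58 ± 0.34, adjusted p = 0.162). IFI6, a mitochondrial survival protein, was at 0.45 ± 0.33 (adjusted p = 0.281), and BST2, the tetherin that holds budding virions, at 0.60 ± 0.45 (adjusted p = 0.303). IFI27 (0.07 ± 0.42) and IFI35 (-0.06 ± 0.21) had estimates smaller than their errors. BST2 had 9 to 22 counts per library and IFI27 10 to 27, and their intervals (-0.30 to 1.49 and -0.76 to 0.90) hold changes as large as that of IFITM3.

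The 9 members that missed the count filter were IRF7, OAS1, OAS2, MX2, IFI44L, RSAD2, SAMD9L, XAF1 and EPSTI1. MX2 had 2, 5 and 1 counts in HCT116oxR and 0 in each HCT116 library, a mean under the limit of 3 counts per library that a count of 0 allows, so no fold is given. XAF1, an apoptosis factor silenced in many tumours, and IFI44L had 0 counts in HCT116oxR and 1 count each in HCT116. EPSTI1 had 16, 6 and 2 counts in HCT116oxR and 7, 11 and 8 counts in HCT116. With no filter, SAMD9L was the only one of the 9 to pass.

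Genes above and beside the set in the pathway were counted from lists. Of 22 interferon genes, 13 had 0 counts in every library and 8 more had at most 3 counts over all libraries, IFNB1 and IFNG among these 21. IFNE, an epithelial interferon that is expressed constitutively in some tissues, had 17, 18 and 16 counts in HCT116oxR, against 42, 30 and 28 counts in HCT116, and fell by 1.03 ± 0.36 (adjusted p = 0.0144). Without HCT116 replicate 1 that fall was 0.88 and did not pass (adjusted p = 0.0896). IFNE overlaps the lncRNA MIR31HG, which fell by 1.2 ± 0.33 (adjusted p = 0.00136), and with strand use unstated the counts of either may include reads of the other. Of 6 receptor genes 1 rose and 2 fell, where 22.3% of all tested genes rose and 21.8% fell. The type I receptor chain IFNAR2 rose by 0.35 ± 0.10 (adjusted p = 0.00177), and its partner IFNAR1 was at -0.13 ± 0.31 (adjusted p = 0.773). The falls were in the chains of the interferon gamma receptor, IFNGR1 by 0.55 ± 0.08 (adjusted p = 2.98e-10) and IFNGR2 by 0.23 ± 0.06 (adjusted p = 2.88e-04). IFNAR1, IFNAR2 and IFNGR2 each overlap another annotated gene, so the doubt given for IFNE holds for them too.

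Of 5 transduction genes 3 fell, by small amounts, where 21.8% of all tested genes fell and 22.3% rose. TYK2, the kinase bound to IFNAR1, had 92.7, 92.8 and 94.1 CPM in HCT116oxR, against 114, 127 and 135 CPM in HCT116, and fell by 0.43 ± 0.05 (adjusted p = 4.04e-12). JAK1, the kinase bound to IFNAR2, fell by 0.12 ± 0.04 (adjusted p = 0.0165), and did not pass without HCT116oxR replicate 3 (-0.11) or without HCT116 replicate 2 (-0.09). Of 14 genes of nucleic acid sensing upstream of interferon, 10 were tested, 2 rose and 5 fell, against the same shares of all genes. The falls were in TLR3, an endosomal receptor of double-stranded RNA (-0.83), in its adaptor gene TICAM1 (-0.50), in the RIG-I ubiquitin ligase gene TRIM25 (-0.41), in the kinase gene TBK1 (-0.26) and in MAVS, the mitochondrial adaptor of the RNA sensors (-0.20). The rises were in MYD88, an adaptor of other Toll-like receptors (0.92), and TMEM173. TMEM173, which encodes STING, rose by 0.44 ± 0.14 (adjusted p = 0.00417), while MB21D1, which encodes cGAS, the DNA sensor that activates it, had 4, 1 and 1 counts in HCT116oxR and 6, 3 and 5 counts in HCT116. Of 13 genes that limit sensing or signalling 1 rose and 7 fell, where 22.3% and 21.8% of all tested genes did. The rise was in SOCS3, a feedback inhibitor of cytokine receptors (0.95 ± 0.09, adjusted p = 2.80e-17). The largest fall was in RNASEH2C, a subunit of RNase H2 (-0.98 ± 0.09, adjusted p = 7.18e-18). SOCS3 lies on chromosome 17, where 79 of its 144 tested protein-coding neighbours within 5 Mb rose and 11 fell, with a median of 0.23. Neighbours here and below leave out every gene of the set and of the pathway and marker lists. JAK1, TRIM25, SOCS3 and RNASEH2C each overlap another annotated gene, and strand use is unstated.

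Of 29 tested interferon-stimulated genes outside the set 4 rose and 13 fell, where 22.3% and 21.8% of all tested genes did. The single change of at least 2-fold was in TYMP, thymidine phosphorylase, which fell by 1.10 ± 0.11 (adjusted p = 4.32e-16). TYMP lies on chromosome 22 among genes that moved with it, since 31 of 43 tested protein-coding neighbours within 5 Mb fell, with a median of -0.86. Of 7 tested interferon gamma targets 5 fell and 1 rose. GBP2, a guanylate-binding protein, fell by 2.42 ± 0.50 (adjusted p = 2.08e-05) and its neighbour GBP3 by 1.13 ± 0.28 (adjusted p = 5.00e-04), CD274, which encodes PD-L1, fell by 1.04 ± 0.23 (adjusted p = 7.34e-05), and the complement inhibitor gene SERPING1 rose by 1.42 ± 0.42 (adjusted p = 0.00326). GBP2 had 2, 10 and 3 counts in HCT116oxR, against 29, 27 and 22 counts in HCT116, and without HCT116oxR replicate 2 it fell by 3.36. In a test against a 1.5-fold change GBP3 (adjusted p = 0.0856), CD274 (adjusted p = 0.0743) and SERPING1 (adjusted p = 0.075) did not pass, and neither did IFNE (adjusted p = 0.309). Of 14 tested MHC class I presentation genes 4 rose and 4 fell, with ERAP1, a peptide-trimming protease, lower by 1.09 ± 0.13 (adjusted p = 3.40e-12). TYMP, GBP2, CD274 and ERAP1 each overlap another annotated gene, so the doubt given for IFNE holds for them too.

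**Figure D4:**
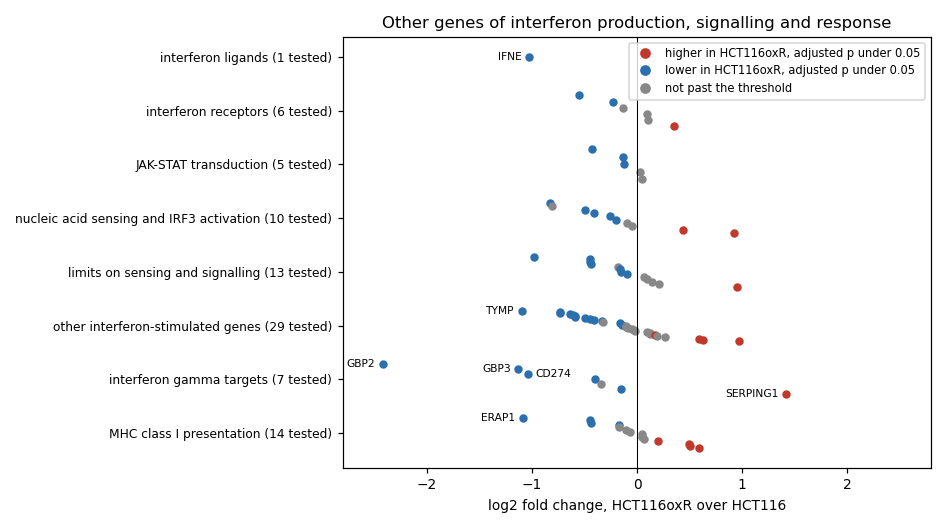
Log2 fold change (HCT116oxR over HCT116, x axis) of the tested genes of 8 pathway lists, with 1 point per gene and red, blue and grey for higher, lower and not past the threshold. Changes of at least 2-fold past the threshold are named, and 3 of the 7 are interferon gamma targets that fell.

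The chromosomal surroundings of the set were examined as for TYMP above. For the 30 tested members the median log2 fold change of tested protein-coding neighbours within 5 Mb ran from -0.13 (around ISG15, 25 of 62 neighbours lower) to 0.15 (around CMPK2). Since listed genes were left out of the neighbours, adjacent members such as those of the IFIT and IFITM families are not counted in these medians. The median was 0.15 around CMPK2, 0.11 around IFIT3 and 0.08 around the IFITM genes, against own values of 1.94, -1.58 and 0.63 to 0.77. XAF1, with 1 count, lies where the neighbour median was -0.22. In RefSeq, 15 of the 39 genes overlap another annotated gene, and since strand use is unstated, a read there could come from either gene.

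**Figure D5:**
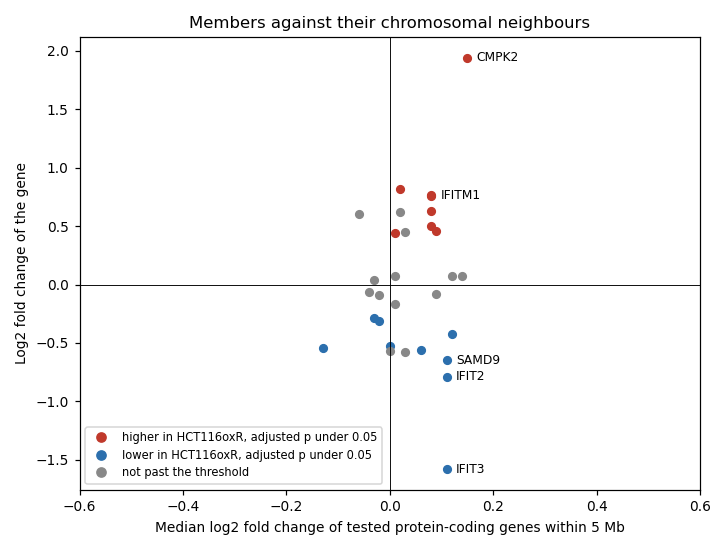
Log2 fold change of each tested member (y axis) against the median log2 fold change of tested protein-coding genes within 5 Mb (x axis), coloured by call. The set and the other listed genes are left out of that median. The members stand in a narrow band between -0.13 and 0.15 on the x axis, while their own values run from -1.58 to 1.94.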

How the data were processed

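Total RNA was sequenced from 3 HCT116oxR and 3 HCT116 cultures. The authors deposited raw counts per gene, aligned to GRCh38 with HISAT2 per the submitters' processing notes; versions, counting tool, strand use and multi-mapping were not given in the sources used here. RNA had an integrity number above 8.0 per the labels' protocols. All 6 columns of the total RNA table were used. The small RNA table was not used here, since no member is a miRNA.

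Counts were analysed in R 4.3.3 with edgeR 4.0.16: filterByExpr at its defaults (minimum count 10, minimum total 15), TMM scaling and a robust quasi-likelihood F test, Benjamini-Hochberg adjusted over all 17511 genes tested. The common biological coefficient of variation was 4.77%. The SE was obtained by dividing the size of the log2 fold change by the root of its F statistic, and 95% intervals assume normality, so both are approximate. Counting intervals cover counting error only. The script was tested on simulated data. Libraries of a line differed by more than sampling noise (chi-square divided by its degrees of freedom was at least 2.25).

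The members and lists were chosen with earlier results of these data known. Values in every library were planned for ISG15, MX1, IFIT1, OAS1, STAT2, IRF9 and members past the threshold with at least 2-fold changes, and were added for the other members that passed; from other lists, genes changed at least 2-fold and IFNAR1, IFNAR2, JAK1, TYK2, MB21D1 and TMEM173 were named. SAMD9L, OASL, DHX58, LIPA, LOC102723458, MIR31HG, IFNGR1, IFNGR2, TLR3, TICAM1, TRIM25, TBK1, MAVS, MYD88, SOCS3 and RNASEH2C were named after their values were seen. Alternatives were RLE factors, library totals, other count filters, DESeq2 1.42.0, non-robust dispersion, a test against a 1.5-fold change, a replicate block and leaving out each library. RefSeq positions and promoters are of GRCh38.p14, where 38 members matched by symbol and DDX58 by an older symbol. Some genes of the lists are not reported here.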

Additional observations from a re-analysis of the deposited data

How the results depend on the processing

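Of the 17 calls among the set, 15 were kept under all 13 alternatives other than the test against a 1.5-fold change, and IFITM1 and IFIT2 were lost as described. That stricter test kept 3 (CMPK2, IFITM3 and IFIT3), 2 higher and 1 lower, and 1430 of all genes, 820 higher and 610 lower. Of the other genes named for changes of at least 2-fold it ended the calls of IFNE, GBP3, CD274 and SERPING1. SAMD9L was called lower in addition with DESeq2, with no filter and without HCT116oxR replicate 1, 2 or 3 or HCT116 replicate 3, and OASL without HCT116oxR replicate 2. The median log2 fold change of the tested members was -0.07 with no filter, where 39 members were tested, and -0.07 with DESeq2. Over the fits without each library it ran from -0.14 to 0.02, with 7 to 8 members higher and 9 to 11 lower. With the replicate number as a block, 8 members rose and 9 fell, and 7565 genes changed, so the block changed no call of the set. Same-numbered libraries did not deviate together (correlation -0.0275 to -0.00705), so the numbers were not taken to pair the cultures. Values that did not pass the test and changed sign without a library were those of DHX58 (range -0.16 to 0.51, with -0.08 without HCT116oxR replicate 2, -0.15 and -0.16 without HCT116 replicates 1 and 2), IFI27 (range -0.29 to 0.38, with -0.29 without HCT116oxR replicate 2, -0.12 without HCT116 replicate 1), and, without HCT116 replicate 2, HERC6 (-0.01, range to 0.15), IFIT1 (0.13, range from -0.19) and IFI35 (0.19, range from -0.32). The cause was not tested. Depth limits members such as DHX58, BST2 and IFI27, whose intervals span more than 1 log2 unit.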
